A study of Ovis aries with 36 samples.

Results

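Of the 26478 Ensembl sheep gene IDs counted in this series, 4 were taken for their very high or near-exclusive counts in the pars tuberalis. They are ENSOARG00020016511, ENSOARG00020015174, ENSOARG00020015585 and ENSOARG00020022677, and all 4 passed the filter on low counts. The pars tuberalis is the sleeve of the pituitary that wraps the median eminence, the floor of the hypothalamus. It is rich in melatonin receptors and passes the signal of day length on to the hypothalamus and to the pars distalis, the neighbouring hormone-secreting part of the gland. Pituitary endocrine cells make a few hormone transcripts in very large amounts, so the share of each cell type in a dissected piece weighs heavily on such transcripts.

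Messenger RNA was sequenced from 12 adult rams of the breed Rasa Aragonesa, 6 sexually active (animals 1 to 6) and 6 not active (animals 7 to 12, called inactive here). Every ram gave 1 library each of pars tuberalis, hypothalamus and pineal gland, so the series holds 36 libraries in 6 groups of 6, and the labels name no treatment. The replicates of a group were different rams. The series asks how these tissues differ with sexual behaviour.

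Neither the deposited file nor the reference gene table used here pairs these IDs with gene names, so no function, sequence or genome position is given for them. The labelled tissues could not be checked against named marker genes for the same reason. Instead, genes restricted to a tissue were listed, with a median of 20 CPM (counts per 1000000 counts of the scaled library total) or more there, and 50 or more times the median of each other tissue. This gave 43 genes for the pars tuberalis, of which 3 were members, 35 for the hypothalamus and 69 for the pineal gland. A library's level of such a list is the median over its genes of the CPM as a percent of the tissue's median. Pars tuberalis libraries held the 40 other genes of their own list at 84.2% to 106%, the hypothalamus list at 0.18% to 0.72% and the pineal list at 0.0694% to 0.191%. The lists were picked from these same libraries by their labelled tissue. High levels of the own list and low levels of the others thus follow from that choice and do not check the labels. Pineal libraries held the hypothalamus list at 0.353% to 8.95%, highest in animal 10. Depth ran from 22556623 to 35440028 counts in the pars tuberalis, 19251952 to 44283825 in the hypothalamus and 25242937 to 72951491 in the pineal gland.

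The 4 transcripts differed widely in level. By median CPM in the pars tuberalis, ENSOARG00020016511 ranked 2 among all IDs, ENSOARG00020015174 ranked 8, ENSOARG00020015585 ranked 45 and ENSOARG00020022677 ranked 1320. These are ranks by reads and not per transcript length, which the file does not give. ENSOARG00020022677 was thus not among the very abundant transcripts. It had 0 counts in 9 of 12 pineal libraries, and 4 of the 40 other restricted genes had 0 in 9 or more. Together the 4 took 0.587% to 2.84% of all counts of a pars tuberalis library (median 1.65%). The members were chosen by their measured counts in the pars tuberalis against the other tissues, so the tissue differences that follow are a description without a test.

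ENSOARG00020016511 had 10859 ± 5488 CPM in the pars tuberalis (SD, n = 12), with a lowest value of 4565, a median of 8782 and a highest of 22642. Its median was 2.14 CPM in the hypothalamus, where 3 libraries had 0 counts, and 0.182 CPM in the pineal gland, where 3 others had 0. A count of 0 allows up to 0.0614 to 0.126 CPM in those 6 libraries. ENSOARG00020015174 had 3194 ± 1094 CPM in the pars tuberalis (1396 to 5155, median 2933), against medians of 3.68 CPM in the hypothalamus and 0.033 CPM in the pineal gland. Both were thus near the counting limit in most pineal libraries, and low but measurable in most of the hypothalamus.

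ENSOARG00020015585 was the least restricted of the 4. It had 1566 ± 1228 CPM in the pars tuberalis (397 to 4042, median 1185), a median of 27.7 CPM in the hypothalamus and one of 1.29 CPM in the pineal gland. Its pars tuberalis median was 42.7 times the hypothalamus median, short of the 50 times that the list of restricted genes required. ENSOARG00020022677 had 132 ± 84.7 CPM in the pars tuberalis (31.3 to 314, median 137) and a median of 0.259 CPM in the hypothalamus. In the pineal gland it had 3 counts in all, 1 each in animals 5, 6 and 12, and the other 9 libraries had 0, which allows up to 0.0425 to 0.121 CPM in each.

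**Figure D1:**
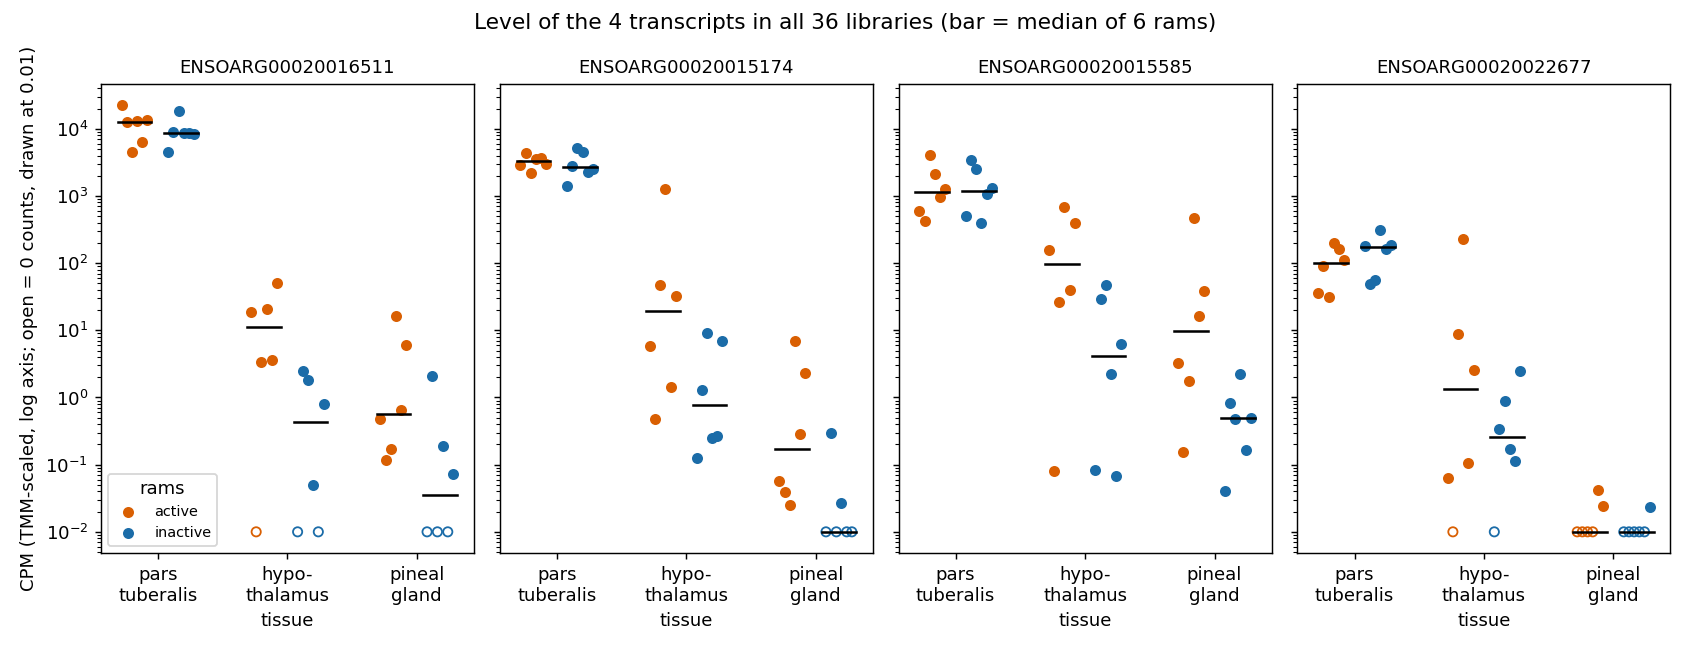
CPM of each transcript on a log axis in the 36 libraries, by tissue and state; each point is 1 library, bars are medians of 6 rams and open points are libraries with 0 counts. Pars tuberalis libraries form a narrow band for ENSOARG00020016511 at 4565 to 22642 CPM, while the hypothalamus and pineal libraries spread over several powers of 10.

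Within the pars tuberalis the 4 transcripts were more variable than most genes. The coefficient of variation (CV, the SD as a percent of the mean) over the 12 rams was 34.2% for ENSOARG00020015174, 50.5% for ENSOARG00020016511, 64.1% for ENSOARG00020022677 and 78.4% for ENSOARG00020015585. Over the 10488 genes averaging 10 CPM or more in this tissue the median CV was 19.4%, and 95% of the genes lay below 53.7%. Only 1.4% of those genes had a higher CV than ENSOARG00020015585, against 3.04%, 5.91% and 16.0% for ENSOARG00020022677, ENSOARG00020016511 and ENSOARG00020015174. The 40 other restricted genes had a median CV of 31.2%, near that of ENSOARG00020015174. The level of that list ran from 84.2% to 106% in the 12 libraries. It is a median over genes that were each scaled to their own median in these libraries. It thus evens out single genes and cannot be set against the CV of 1 gene. The highest library exceeded the lowest 10.2-fold for ENSOARG00020015585, 10.0-fold for ENSOARG00020022677, 4.96-fold for ENSOARG00020016511 and 3.69-fold for ENSOARG00020015174.

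Different rams were extreme for different transcripts. ENSOARG00020016511 was highest in animal 1, at 22642 CPM, and in animal 9, at 18448 CPM, and lowest in animals 3 and 7, at 4565 and 4567 CPM. ENSOARG00020015585 was highest in animal 3, at 4042 CPM, then in animals 8 and 9, at 3482 and 2547 CPM, and lowest in animals 10 and 2, at 397 and 418 CPM. Animal 3 thus joined the lowest level of ENSOARG00020016511 to the highest level of ENSOARG00020015585.

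ENSOARG00020022677 was highest in animal 10, at 314 CPM, the ram with the lowest ENSOARG00020015585. It was lowest in animals 3 and 1, at 31.3 and 36.3 CPM, the rams with the highest ENSOARG00020015585 and the highest ENSOARG00020016511. ENSOARG00020015174 was highest in animals 9 and 10, at 5155 and 4561 CPM, and lowest in animal 7, at 1396 CPM. Animal 7 was low for 3 of the 4, at 47.6% of the median for ENSOARG00020015174, 52% for ENSOARG00020016511 and 42.4% for ENSOARG00020015585, but had ENSOARG00020022677 at 132%.

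**Figure D2:**
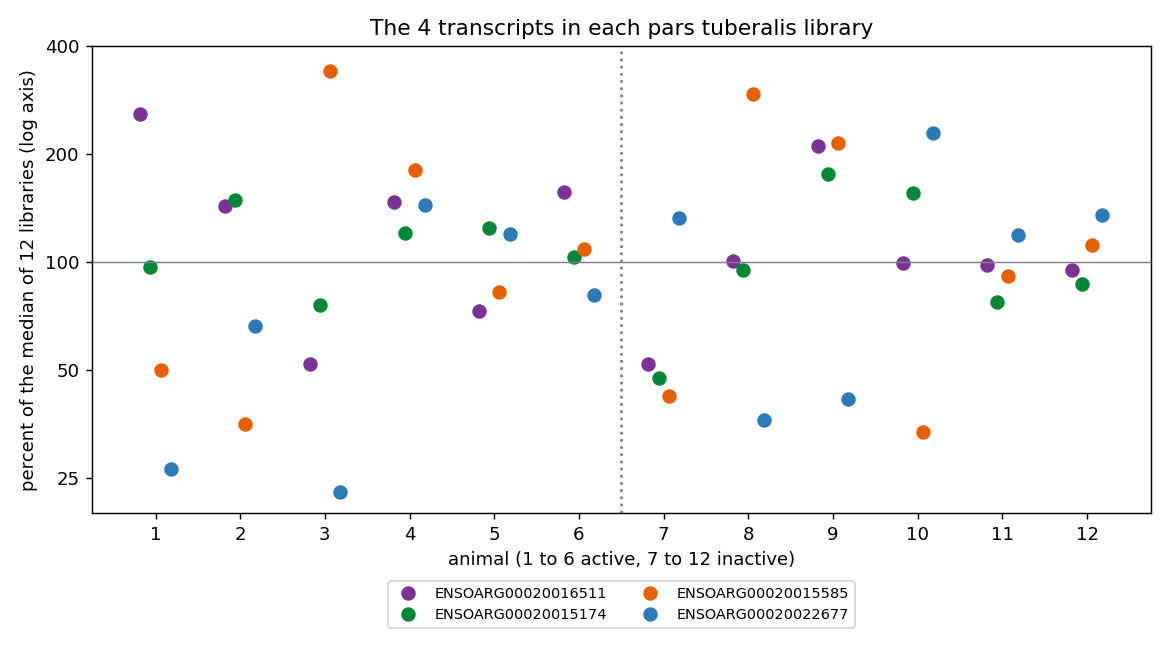
Level of each transcript in the 12 pars tuberalis libraries as a percent of its median over them (log axis), by animal. The 4 points of a ram seldom lie together: animal 3 has ENSOARG00020015585 at 341% and ENSOARG00020022677 at 22.8%, and animal 10 has them at 33.5% and 229%.

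The counts within a library varied accordingly. For each count of ENSOARG00020016511 the pars tuberalis libraries held 0.126 to 0.57 counts of ENSOARG00020015174 (median 0.305), the narrowest of these ratios. They held 0.0261 to 0.886 counts of ENSOARG00020015585 (median 0.132) and 0.00161 to 0.0398 counts of ENSOARG00020022677 (median 0.0117). The latter ratios ran over more than 10-fold among rams.

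No pair of the 4 transcripts showed a relation across the 12 pars tuberalis libraries that passed the test. On log2(CPM + 0.1), ENSOARG00020016511 and ENSOARG00020015174 gave the highest value, a Pearson r of 0.59 (permutation p = 0.0413, adjusted p = 0.248 over 6 pairs) and a Spearman rho of 0.57 (permutation p = 0.0547, adjusted p = 0.328). Without animals 1 and 9, the libraries farthest from the median, r was 0.65. Within active rams r was 0.31 and within inactive rams 0.86.

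ENSOARG00020015585 and ENSOARG00020022677 gave the lowest value, with r = -0.49 (permutation p = 0.108, adjusted p = 0.325) and rho = -0.43 (permutation p = 0.161, adjusted p = 0.483). Without animals 3 and 10, the rams farthest from the median of ENSOARG00020015585, that r was -0.14. Leaving out each ram in turn gave -0.70 to -0.32. The r was -0.10 in active and -0.92 in inactive rams. ENSOARG00020016511 had r = -0.08 with ENSOARG00020015585 and -0.24 with ENSOARG00020022677, and rho was -0.03 and -0.2. ENSOARG00020015174 had r = -0.04 with ENSOARG00020015585 and 0.03 with ENSOARG00020022677, with rho of -0.24 and 0.17. For these other 4 pairs the permutation p of r ran from 0.442 to 0.923 (adjusted p 0.885 to 0.923) and that of rho from 0.456 to 0.939 (adjusted p 0.724 to 0.939). Without the 2 rams farthest from the median of the gene named first, the r of the 4 pairs was -0.1, 0.22, -0.65 and 0.47 in the same order.

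The other restricted genes did not follow the members as a block. Of the 40, 12 had an r above 0.5 with ENSOARG00020015174 and 2 an r below -0.5, with a median r of 0.28, where 18.6% and 18.7% of the 10487 other genes with at least 10 CPM did so and the median was -0.04. For ENSOARG00020016511 the corresponding numbers were 4 and 4 of 40 (median 0.1), for ENSOARG00020015585 3 and 5 (median 0.04), and for ENSOARG00020022677 4 and 1 (median 0.01). The shares of all genes for those 3 were 4.07% to 7.13% above 0.5 and 4.93% to 5.55% below -0.5.

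Depth and the levels of the 3 tissue lists were set against each member over the 12 pars tuberalis libraries, which made 16 relations. None passed after adjustment. The strongest was that of ENSOARG00020015585 with the level of hypothalamus-restricted genes, with r = -0.66 (permutation p = 0.0229, adjusted p = 0.366) and rho = -0.64 (permutation p = 0.0296, adjusted p = 0.316). It was -0.51 without animals 1 and 2, -0.7 in active and -0.65 in inactive rams. ENSOARG00020015174 had r = 0.57 with the 40 other pars tuberalis-restricted genes (permutation p = 0.0533, adjusted p = 0.376) and rho = 0.61 (permutation p = 0.0395, adjusted p = 0.316), and r was 0.67 without animals 1 and 12. The part of tissue make-up in the spread was not tested further, and fewer cells of a type cannot be told apart from less RNA per cell in pieces of tissue.

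By Pearson r over the 12 pars tuberalis libraries, among genes averaging 10 CPM or more there, the most alike were mostly genes of modest level that other tissues also held. For ENSOARG00020016511 these were ENSOARG00020004554 (r = 0.9, rho = 0.83), at 19.6 ± 11.1 CPM in the pars tuberalis and 25.4 ± 8.84 in the hypothalamus (SD, n = 12), and ENSOARG00020021268 (r = 0.88, rho = 0.89). For ENSOARG00020015174 they were ENSOARG00020024861 (r = 0.9, rho = 0.9) and ENSOARG00020011317 (r = 0.87, rho = 0.94). ENSOARG00020011317 was itself restricted to the pars tuberalis, at 266 ± 165 CPM there with 27.4 in the lowest and 463 in the highest library. In the hypothalamus ENSOARG00020011317 was highest in animal 4 too, at 102 CPM.

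For ENSOARG00020015585 the most alike were ENSOARG00020025558 (r = 0.83, rho = 0.76) and ENSOARG00020022536 (r = 0.83, rho = 0.85), and for ENSOARG00020022677 they were ENSOARG00020006072 (r = 0.87, rho = 0.9) and ENSOARG00020000370 (r = 0.87, rho = 0.8). No gene had an r above 0.9 with any member before rounding. Each pair rests on 12 libraries and was picked as the highest of 10487, so these values are a description.

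The levels of active and inactive rams overlapped for each of the 4 transcripts in the pars tuberalis. ENSOARG00020016511 averaged 12135 ± 6389 CPM in active (4565 to 22642, median 12727) and 9582 ± 4639 CPM in inactive rams (4567 to 18448, median 8659; SD, n = 6 each). ENSOARG00020015174 averaged 3270.0 ± 737 and 3117 ± 1440.3 CPM, with a range of 2228 to 4357 in active and 1396 to 5155 in inactive rams. The ranges of the groups overlapped for both, and inactive rams enclosed the active ones for ENSOARG00020015174.

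ENSOARG00020015585 averaged 1577 ± 1353 CPM in active (418 to 4042, median 1132) and 1555 ± 1219 CPM in inactive rams (397 to 3482, median 1199). ENSOARG00020022677 averaged 105 ± 67.2 CPM in active (31.3 to 198, median 101) and 159 ± 97.7 CPM in inactive rams (49.7 to 314, median 173). For ENSOARG00020022677, 1 of 6 active rams exceeded the inactive median, but the ranges overlapped. No member had groups apart, where 0.0894% of the tested genes had.

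In edgeR's quasi-likelihood test over all 36 libraries with Benjamini-Hochberg adjustment over 16773 genes, 0 of the 4 were called by state in the pars tuberalis. The test called 0% of all genes there, with 593 at an unadjusted p under 0.05. By DESeq2 1 gene was called (0.00596%), which was no member. The log2 differences, active minus inactive, were 0.34 (SE 0.987) for ENSOARG00020016511, 0.07 (SE 1.12) for ENSOARG00020015174, 0.02 (SE 1.24) for ENSOARG00020015585 and -0.59 (SE 0.997) for ENSOARG00020022677. Their adjusted p by edgeR ran from 0.967 to 1. These errors share the spread of the other tissues. In a fit of the 12 pars tuberalis libraries alone the errors were 0.38, 0.284, 0.605 and 0.512 in that order, with log2 differences of 0.33, 0.06, 0.01 and -0.59 and edgeR adjusted p of 0.916 to 0.997. Exact two-sided permutation of the 6 against 6 rams gave p of 0.359 to 0.981 (adjusted p 0.565 to 0.981 over 12 tests), where the smallest p possible is 0.00216.

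In the hypothalamus a few libraries carried the 4 transcripts. ENSOARG00020015585 stood at 697 CPM in animal 4, 401 in animal 6 and 158 in animal 1, which is 58.8%, 33.9% and 13.4% of its pars tuberalis median. It lay between 2.25 and 46.8 CPM in animals 3, 5, 8, 9, 10 and 12 and at 0.0676 to 0.0839 CPM, or 2 to 3 counts, in animals 2, 7 and 11. Its hypothalamic level therefore ran over 10302-fold.

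ENSOARG00020015174 stood at 1281 CPM in animal 4, or 43.7% of its pars tuberalis median. The next hypothalamus libraries were those of animals 3 and 6, at 48.0 and 32.5 CPM, and the others had 0.126 to 9.04 CPM. ENSOARG00020022677 was even more confined to the library of animal 4, which held 95.7% of its 7596 hypothalamic counts. There it stood at 232 CPM, or 169% of its pars tuberalis median and above the 198 CPM of the same ram's pars tuberalis. Animal 3 followed at 8.75 CPM, and the other 10 libraries had at most 2.54 CPM.

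ENSOARG00020016511 had the same 3 highest libraries as ENSOARG00020015585, in another order. It was highest in animal 6, at 50.5 CPM, followed by 21.1 CPM in animal 4 and 18.7 CPM in animal 1, with at most 3.64 CPM elsewhere. The 50.5 CPM was 0.575% of its pars tuberalis median. By its highest hypothalamus library as a percent of the pars tuberalis median, the most abundant of the 4 was thus the lowest.

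Within the hypothalamus the transcripts varied together, in relations that were added after the data were seen and adjusted over 9. ENSOARG00020016511 and ENSOARG00020015585 gave r = 0.97 (permutation p = 1e-05, the smallest the permutations can give, adjusted p = 4.5e-05) and rho = 0.94 (permutation p = 4e-05, adjusted p = 0.00018), and r was 0.96 without animals 2 and 6. ENSOARG00020015174 and ENSOARG00020022677 gave r = 0.93 (permutation p = 8e-05, adjusted p = 0.00024) and rho = 0.82 (permutation p = 0.00186, adjusted p = 0.00418), and r was 0.79 without animals 3 and 4. ENSOARG00020015174 had r = 0.79 with ENSOARG00020016511 and 0.81 with ENSOARG00020015585 (permutation adjusted p 0.00195 and 0.00153), with rho of 0.77 and 0.76 (permutation adjusted p 0.00666 and 0.00707). ENSOARG00020022677 had r = 0.58 with ENSOARG00020016511 and 0.64 with ENSOARG00020015585 (permutation adjusted p 0.041 and 0.0234), but rho of 0.57 and 0.54 (permutation adjusted p 0.0622 and 0.0712). Within active rams the r of these 6 pairs was 0.48 to 0.98, and within inactive rams 0.70 to 0.94. All 6 pairs thus had a positive r in the hypothalamus. In the pars tuberalis 4 of 6 were below 0, among them values of -0.04 and -0.08 that turned above 0 on another library total. The difference between the tissues was not tested. No other genes were set beside these relations or those within the pineal gland.

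The 40 other restricted genes followed these libraries in part, and 26 of them had their highest hypothalamus library in animal 4. In the hypothalamus library of animal 4 their level was 16.5%, with 24 of 40 at 10% or more of the pars tuberalis median and 35 at 1% or more. It was 2.0% in animal 3 (1 and 27 of 40), 1.36% in animal 6 (0 and 26) and 0.345% in animal 1 (0 and 7). In the other 8 libraries it was 0.164% to 0.512%, with 3 to 16 genes at 1% or more. Animal 1, the third highest for ENSOARG00020015585, was thus below animals 5, 7, 8, 9 and 12 by this list. Animal 10 had 3 of the 40 at 10% or more. In the libraries of animals 1, 5, 6 and 9 ENSOARG00020015585 stood above all 40 genes as a percent of the pars tuberalis median. In animal 4, 5 of the 40 exceeded it. The 40 were picked from these same libraries for a low hypothalamus median against that of the pars tuberalis, a limit that ENSOARG00020015585 missed. Its place above them in the hypothalamus thus follows in part from that choice and is a description only.

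In the pineal gland ENSOARG00020015585 stood at 476 CPM in animal 4, or 40.2% of its pars tuberalis median. It followed at 39.0 CPM in animal 6 and 16.1 CPM in animal 5, and the other 9 libraries had 0.041 to 3.23 CPM. ENSOARG00020016511 was also highest in animal 4, at 16.3 CPM, then in animals 6 and 8, at 6.02 and 2.07 CPM, with at most 0.662 CPM elsewhere. ENSOARG00020015174 had 6.86 CPM in animal 4 and 2.3 CPM in animal 6, and at most 0.292 CPM elsewhere. ENSOARG00020022677 had 0 counts in the pineal library of animal 4.

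That pineal library held the 40 other restricted genes at 0.345%, within the 0.138% to 0.357% of all pineal libraries, with 0 of 40 at 10% or more. None of the 40 reached ENSOARG00020015585 there as a percent of the pars tuberalis median. Within the pineal gland ENSOARG00020016511 and ENSOARG00020015174 gave r = 0.96 (permutation adjusted p = 4.5e-05) and rho = 0.97 (permutation adjusted p = 9e-05), and r was 0.91 without animals 4 and 6. ENSOARG00020015585 had r = 0.88 with ENSOARG00020016511 and 0.90 with ENSOARG00020015174 (permutation adjusted p 0.000828 each), with rho of 0.87 and 0.78 (permutation adjusted p 0.00123 and 0.00666). Without animals 4 and 6 each of the latter was 0.62, and within inactive rams they were 0.54 and 0.39. Many of these levels rest on a few counts. All 16773 tested genes were then compared with the median of the other 11 pineal libraries. In animal 4, 2 genes had at least 10 CPM and stood at least 50-fold above it, and these were ENSOARG00020015585 and ENSOARG00020016511. The other pineal libraries had 0 to 10 such genes, with 10 in animal 10 and no member in any. The same comparison in the hypothalamus library of animal 4 found 30 genes, against 0 to 5 in the other hypothalamus libraries, with no member in those. Of the 30, 28 had their highest median in the pars tuberalis, where 36.5% of all tested genes had theirs, 16 were among the 40 restricted genes, and 2 were the members ENSOARG00020015174 and ENSOARG00020022677. These thresholds were chosen after the values were seen. The pineal level of ENSOARG00020015585 was known when the members were chosen, so the members found this way are a description. In the pineal library of animal 4, ENSOARG00020015174 fell below the limit of 10 CPM, at 6.86 CPM. At 100-fold ENSOARG00020015585 alone was left there. At 20-fold the numbers for animal 4 were 3 in the pineal gland, with ENSOARG00020015585 and ENSOARG00020016511 among them, and 43 in the hypothalamus. Other libraries then held members too. These were ENSOARG00020015174 in the hypothalamus of animals 3 and 6, ENSOARG00020016511 in that of animal 6 and ENSOARG00020015585 in the pineal gland of animal 6. The pineal library of animal 10 had 29 such genes, and the hypothalamus library of animal 10 had 13.

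**Figure D3:**
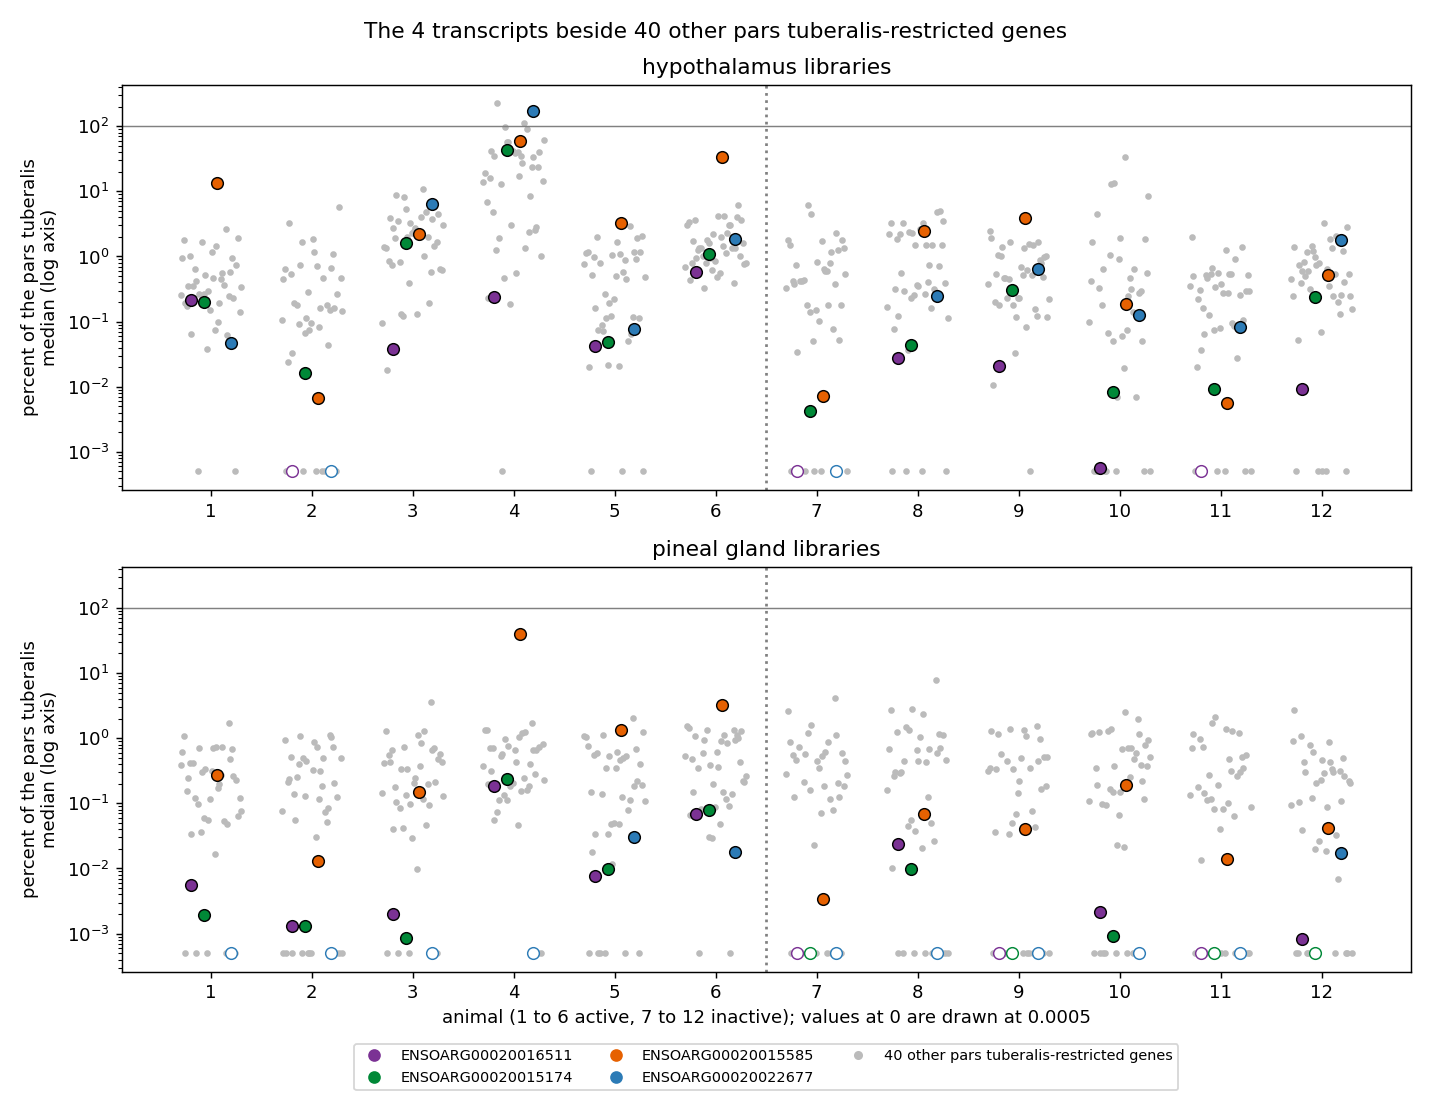
Level of the 4 transcripts (large points) and of the 40 other pars tuberalis-restricted genes (small grey points) in each hypothalamus and pineal library, as a percent of the pars tuberalis median on a log axis. In the hypothalamus of animal 4, 24 of 40 grey points lie at 10% or more and 3 lie below ENSOARG00020016511 at 0.24%, while in the pineal gland of animal 4 ENSOARG00020015585 at 40.2% lies above all grey points.

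Count ratios within a library set out these differences without any scaling. Of the libraries with at least 10 counts of ENSOARG00020016511, all 8 of the hypothalamus held more ENSOARG00020015585 for each of those counts than any pars tuberalis library. The hypothalamic ratios were 7.64 to 33.0, against at most 0.886. In the pineal gland 4 of 5 such libraries were above that limit, at 6.47 to 29.1. The exception was animal 8, at 0.397 with a 95% counting interval of 0.253 to 0.61. The ratio in animal 4 was 33.0 (30.6 to 35.8) in the hypothalamus and 29.1 (27.3 to 31.1) in the pineal gland, against 0.166 in the pars tuberalis of the same ram. These exact binomial intervals cover counting error only. The ratios follow in part from the tissue levels given above, by which the members were chosen, and are a description only.

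The ratio of ENSOARG00020015174 to ENSOARG00020016511 behaved otherwise. In the 5 pineal libraries with enough counts it was 0.118 to 0.438, against 0.126 to 0.57 in the pars tuberalis, and 1 lay below the lowest pars tuberalis ratio. The ratios of animals 1, 5 and 8 rested on 4, 7 and 11 counts of ENSOARG00020015174. Their 95% counting intervals were 0.0303 to 0.33, 0.152 to 1.12 and 0.0676 to 0.266. In the hypothalamus it was 0.318 in animal 1, 0.388 in animal 5, 0.526 in animal 8 and 0.643 in animal 6. It was 4.94 in animal 9, 8.64 in animal 12, 14.2 in animal 3 and 60.7 (56.2 to 65.7) in animal 4. Of the 8 hypothalamus libraries, 5 lay above the highest pars tuberalis ratio and none below the lowest.

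**Figure D4:**
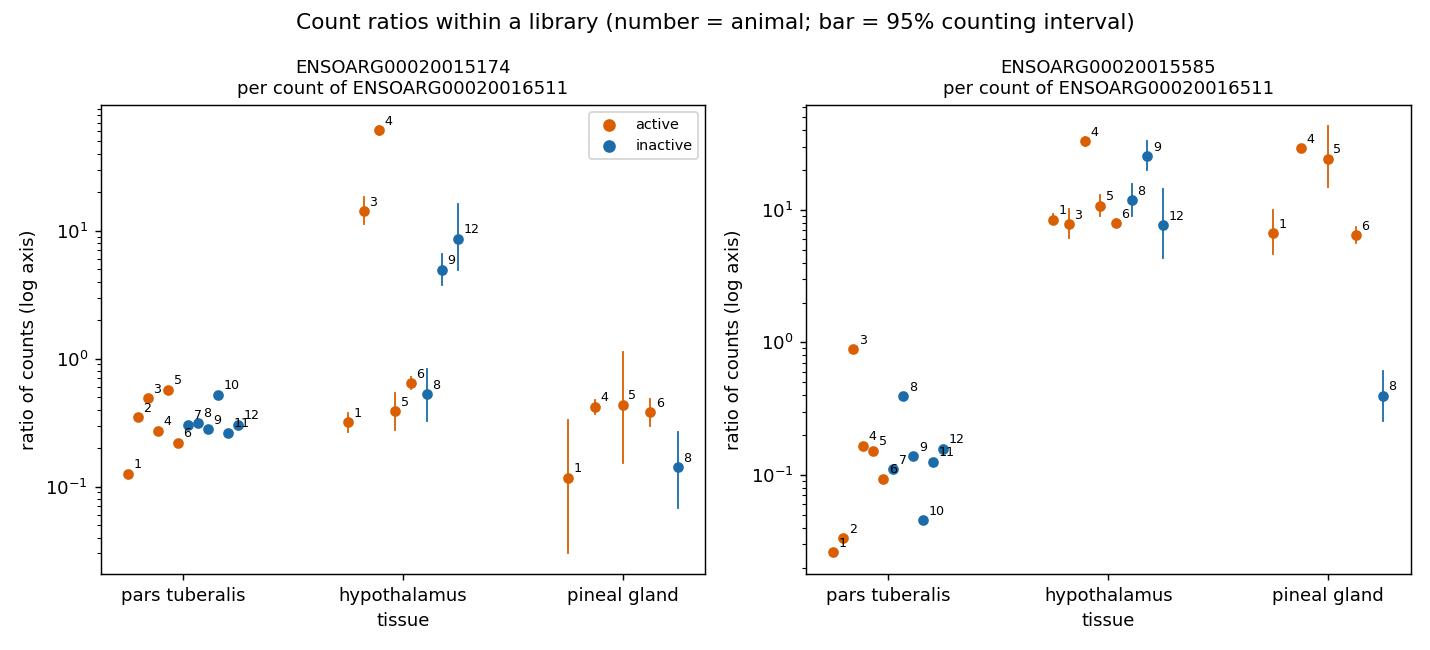
Counts of ENSOARG00020015174 (left) and ENSOARG00020015585 (right) for each count of ENSOARG00020016511 on a log axis, in libraries with at least 10 counts of the latter; bars are 95% counting intervals and numbers are animals. On the right, 8 of 8 hypothalamus and 4 of 5 pineal libraries lie above the highest pars tuberalis library, at 0.886.

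The hypothalamus and the pineal gland of the same ram were compared for 3 of the transcripts. The r of each passed over all 12 rams, none passed as deviations from the state means, and that of ENSOARG00020015174 rested on 1 ram. For ENSOARG00020015585 the highest rams were animals 4 and 6 in both tissues, and the lowest were animals 2, 7 and 11 in both. Over 12 rams its levels gave r = 0.81 (permutation p = 0.00108, adjusted p = 0.0108 over 10 relations) and rho = 0.8 (permutation p = 0.00273, adjusted p = 0.0138). It was 0.78 without animals 2 and 11, 0.85 in active and 0.58 in inactive rams. As deviations from the state means r was 0.75, with a permutation adjusted p of 0.0506, so that the call was lost. Leaving out each ram in turn gave 0.78 to 0.86, with permutation adjusted p of 0.0034 to 0.05.

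ENSOARG00020016511 gave r = 0.76 (permutation p = 0.00404, adjusted p = 0.0202) and rho = 0.81 (permutation p = 0.00276, adjusted p = 0.0138). It was 0.7 without animals 2 and 6, 0.72 in active and 0.52 in inactive rams, and 0.65 as deviations from the state means (permutation adjusted p = 0.103). Its permutation adjusted p rose to 0.0648 without animal 6, 0.0531 without animal 7 and 0.0516 without animal 11. ENSOARG00020015174 gave r = 0.7 (permutation p = 0.0139, adjusted p = 0.0463) but rho = 0.39 (permutation p = 0.211, adjusted p = 0.423). Without animal 4 its r was 0.37 (permutation adjusted p = 0.546), and without animals 3 and 4 it was 0.53. The relation of ENSOARG00020015174 therefore rested on animal 4. It also lost its call without animal 1, 2, 6, 7, 10 or 11, at an r of 0.69 to 0.71.

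Other measures moved between these tissues as well. Over 13870 genes averaging 1 CPM or more in both tissues the median r was 0.16, and 1.46% of genes had a higher r than ENSOARG00020015585, 2.28% than ENSOARG00020016511 and 3.4% than ENSOARG00020015174. The level of the 40 other restricted genes gave r = 0.54 between the tissues and library depth gave r = -0.46. Their part in the relation was not tested.

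The pars tuberalis of a ram did not show a relation with its other tissues that passed the test. ENSOARG00020015585 had the highest r with the hypothalamus, at 0.52 (permutation p = 0.0844, adjusted p = 0.211), with rho = 0.42 (permutation p = 0.178, adjusted p = 0.423), and 0.54 without animals 3 and 10. ENSOARG00020016511 followed at 0.42 (permutation p = 0.172, adjusted p = 0.343), with rho = 0.39 (permutation p = 0.205, adjusted p = 0.423), while ENSOARG00020015174 had 0.15 and ENSOARG00020022677 0.01. With the pineal gland the values were 0.27 for ENSOARG00020016511, 0.17 for ENSOARG00020015174 and 0.24 for ENSOARG00020015585. These last 5 relations had a rho of 0.04 to 0.31 and permutation adjusted p of 0.642 to 0.976 for r and 0.507 to 0.916 for rho. ENSOARG00020022677 was not set against the pineal gland, where it had 3 counts in all.

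**Figure D5:**
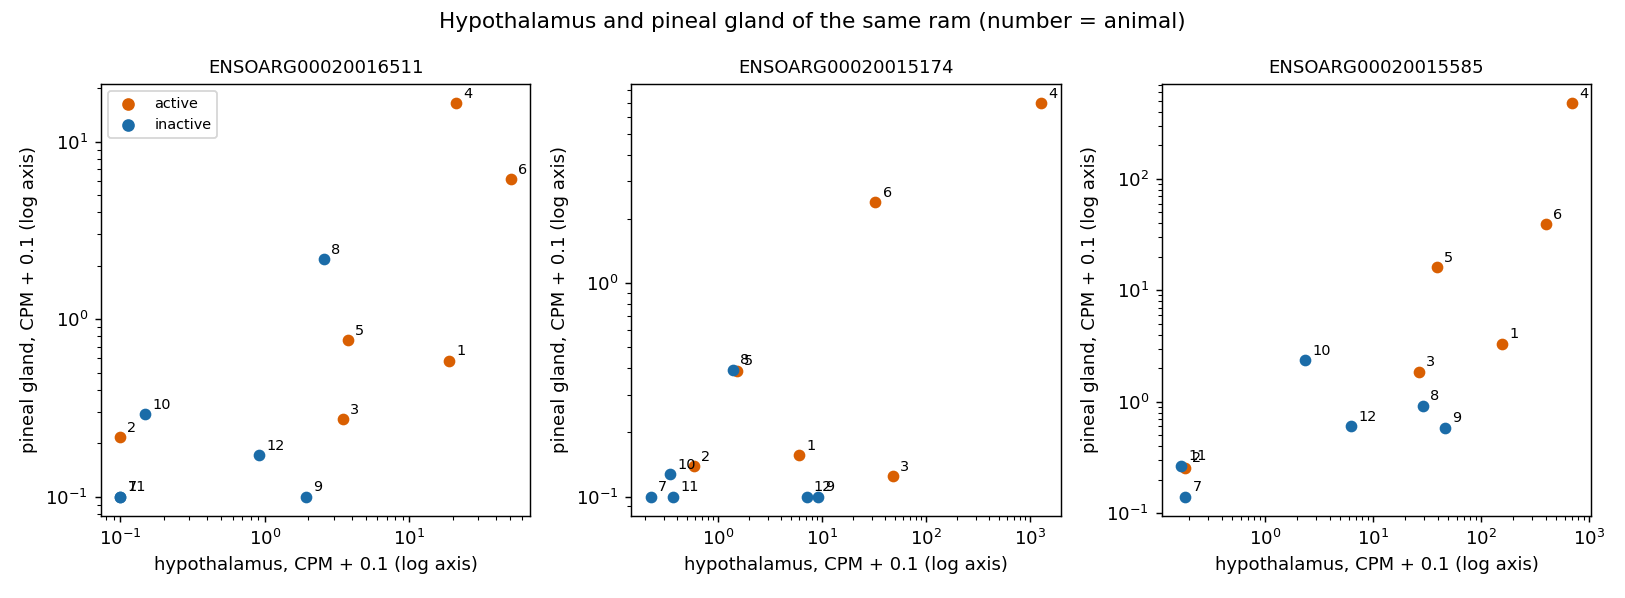
Level in the hypothalamus against level in the pineal gland of the same ram, as CPM + 0.1 on log axes, for 3 transcripts; numbers are animals and colours are states. Animals 4 and 6 lie at the upper right in each panel, and r is 0.76, 0.7 and 0.81 from left to right.

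The libraries that carried most were largely from active rams, in both tissues. In the hypothalamus ENSOARG00020015585 averaged 220.3 ± 276 CPM in active (0.0806 to 697, median 98.7) and 14.1 ± 19.4 CPM in inactive rams (0.0676 to 46.8, median 4.22). ENSOARG00020016511 averaged 16.2 ± 18.9 and 0.858 ± 1.06 CPM, with medians of 11.2 and 0.43. ENSOARG00020015174 averaged 228 ± 516 and 3.0 ± 3.97 CPM, with medians of 19.2 and 0.782, and ENSOARG00020022677 averaged 40.7 ± 94.0 and 0.668 ± 0.945 CPM, with medians of 1.32 and 0.259 (SD, n = 6 each). For the first 3, 5 of 6 active rams exceeded the inactive median. Animal 2, an active ram, was among the 4 lowest libraries for each transcript, and the groups overlapped for each, where 0.113% of tested genes had groups apart.

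In edgeR's quasi-likelihood test 0 of the 4 were called by state in the hypothalamus after Benjamini-Hochberg adjustment, where 16 of 16773 genes (0.0954%) were called and 1565 had an unadjusted p under 0.05. The log2 differences, active minus inactive, were 4.28 (SE 1.2) for ENSOARG00020016511, 6.27 (SE 1.42) for ENSOARG00020015174, 3.97 (SE 1.41) for ENSOARG00020015585 and 6.1 (SE 1.32) for ENSOARG00020022677. Their edgeR adjusted p values were 0.146, 0.06, 0.32 and 0.0515. DESeq2 called 138 genes (0.823%), among them 3 of the 4, at adjusted p of 0.0234 for ENSOARG00020016511, 0.000593 for ENSOARG00020015174 and 0.0055 for ENSOARG00020022677. In edgeR's fit of the 12 hypothalamus libraries alone, the adjusted p was 0.999 for each of the 4, with SE of 1.4 to 2.01.

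The sizes rested on animal 4 for ENSOARG00020015174 and ENSOARG00020022677, whose log2 differences without that ram were 2.57 and 1.86 (edgeR adjusted p 0.439 and 0.632). For ENSOARG00020016511 and ENSOARG00020015585 they were 4.19 and 3.16. ENSOARG00020015174 was called by edgeR without animal 1, 2 or 5 (adjusted p 0.0343 to 0.0394), and ENSOARG00020022677 without animal 1, 2, 5 or 6 (adjusted p 0.0269 to 0.0465). More genes were called in those fits than the 16 with all rams. They were 37 of 16818 genes without animal 1 and 25 of 16859 without animal 2. Without animal 5 they were 32 of 16849, and without animal 6 they were 31 of 16851. Exact permutation of the rams gave p of 0.0433, 0.0693, 0.121 and 0.377 for the 4 in the order above, and adjusted p of 0.208, 0.208, 0.242 and 0.565 over 12 tests. The exact test of ENSOARG00020016511 passed only without animal 2, at an adjusted p of 0.026. In active rams the level of the 40 other restricted genes in the hypothalamus ran from 0.164% to 16.5% (median 0.913%) and in inactive rams from 0.214% to 0.512% (median 0.41%). The part of this list in the state difference was not tested.

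In the pineal gland ENSOARG00020015585 averaged 89.4 ± 190.0 CPM in active (0.155 to 476, median 9.66) and 0.713 ± 0.809 CPM in inactive rams (0.041 to 2.27, median 0.492; SD, n = 6 each). For ENSOARG00020015585, 5 of 6 active rams exceeded the inactive median. For the others that median rested on 0 to 3 counts: 4 of 6 inactive libraries had 0 counts of ENSOARG00020015174 and 3 of 6 had 0 of ENSOARG00020016511, while active animals 2 and 3 had 1 count each of ENSOARG00020015174. The groups overlapped for each, where 0.0537% of tested genes had groups apart. Of the 12 libraries, animal 4 held 91.9% of the pineal counts of ENSOARG00020015585, 70.6% of those of ENSOARG00020016511 and 77.0% of those of ENSOARG00020015174.

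By edgeR's quasi-likelihood test 0 of the 4 were called by state in the pineal gland, where 0% of genes were called and 326 had an unadjusted p under 0.05. The log2 differences were 6.96 (SE 1.67, adjusted p 0.475) for ENSOARG00020015585, 3.33 (SE 1.2, adjusted p 1) for ENSOARG00020016511 and 4.83 (SE 1.83, adjusted p 1) for ENSOARG00020015174, by edgeR with Benjamini-Hochberg adjustment. DESeq2 called 20 genes (0.119%), among them ENSOARG00020015585 alone of the 4, at an adjusted p of 7.9e-05. Without animal 4 the edgeR values were 4.07, 1.92 and 3.25 (adjusted p 1 for each). Animal 8 held 78 of the 88 inactive counts of ENSOARG00020016511 and 11 of the 12 of ENSOARG00020015174, so no fold is given without it. Exact permutation gave p of 0.0346 for ENSOARG00020015585, 0.0974 for ENSOARG00020016511 and 0.0693 for ENSOARG00020015174, with adjusted p of 0.208, 0.234 and 0.208 over 12 tests. The exact test of ENSOARG00020015585 passed without animal 2, at an adjusted p of 0.026. With 2 counts in active and 1 in inactive rams, no fold is given for ENSOARG00020022677. The pineal difference of ENSOARG00020015585 was known from these data when the transcripts were chosen, so it is a description rather than independent evidence.

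Whether the state difference itself differed between tissues was tested in the same fit. That fit has no term for the ram, so it ignores that the tissues came from the same rams. No member passed by edgeR, and 0% of all genes did for the pars tuberalis against either other tissue (690 and 242 at an unadjusted p under 0.05). For ENSOARG00020022677 the state effect in the pars tuberalis was below that in the hypothalamus by a log2 value of -6.7 (SE 1.63, edgeR adjusted p 0.251). For ENSOARG00020015585 the pars tuberalis minus pineal gland value was -6.94 (SE 2.0, edgeR adjusted p 1). With the animal as a block these values were -2.69 (SE 1.67) and -3.89 (SE 1.95), each with an edgeR adjusted p of 1, so that no call changed while the sizes fell by more than 1.5 times. The same held for ENSOARG00020015174, at -6.2 (SE 1.73) against the hypothalamus and -4.77 (SE 2.2) against the pineal gland without the block, and -3.25 (SE 1.65) and -2.45 (SE 2.17) with it.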

How the data were processed

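Tissue was frozen in liquid nitrogen, and stranded mRNA libraries with molecular identifiers were read as pairs, per the labels' protocols. The authors deposited raw read counts per gene for 36 libraries in 1 table. The submitters' processing notes name FastQC, STAR 2.7.8a, HTSeq and edgeR. The genome build, the annotation, the use of strand, shared reads and molecular identifiers were not given in the sources used here, so counts of near-identical or overlapping genes may be uncertain. None of the file's IDs matched the reference gene table (0 matches).

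From the counts, edgeR 4.0.16 (R 4.3.3) kept 16773 of 26478 genes with filterByExpr (minimum count 10), scaled them by TMM and fitted 1 mean for each of 6 groups with the robust quasi-likelihood method (30 residual degrees of freedom). A call needed a Benjamini-Hochberg adjusted p under 0.05, and the SE is the log2 difference divided by the square root of F. The fit was also run on counts simulated from its own means and spread, with state effects set in the pars tuberalis only. Those counts were drawn independently for each library, with no link between libraries of a ram. They therefore do not check the results in the other tissues or those that rest on 1 ram. CPM used the TMM-scaled totals, and correlations and exact tests used log2(CPM + 0.1), with 100000 permutations for a correlation and all 924 splits of 12 rams for state. Adjustment ran over 6 pairs of transcripts, 10 same-animal relations, 16 relations to depth and tissue lists, and 12 exact tests. The same-animal family was planned with 12 relations, and those of ENSOARG00020022677 with the pineal gland were left out for their 3 counts. Intervals are 95% and cover counting error only, and the limit of a count of 0 is 3 counts.

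The 4 transcripts and the lists were chosen with earlier results of these data known. The text names the 4 and, for each, the 2 tested genes with the highest Pearson r over the 12 pars tuberalis libraries at a mean of at least 10 CPM. Alternatives were DESeq2 1.42.0, RLE scaling, no filter, each tissue alone, an animal block, other totals, a pseudocount of 1, deviations from state means and leaving out each animal. Leaving out animals in the exact tests and same-animal relations, the correlations within the hypothalamus and pineal gland (9 relations), and the other folds for genes far above other libraries, were chosen after the data were seen. Animal numbers pair the tissues because the labels give them to the same ram. The median same-animal correlation of deviations from group means over 16773 genes was 0.0948 for pars tuberalis with hypothalamus, 0.216 for pars tuberalis with pineal gland and 0.198 for hypothalamus with pineal gland. In all 90 pairs of libraries within groups the counts differed beyond sampling noise (chi-square per degree of freedom 37.4 to 426).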

Additional observations from a re-analysis of the deposited data

Results flagged for a closer look

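In 10 of the 22 groups of 6 libraries examined, the highest library lay farther from the next than Dixon's 95% criterion allows. The criterion flags about 1 in 20 groups by chance where values are normally distributed. Here it was applied to CPM without a log, which are skewed and in places rest on a few counts, and the groups share rams and tissues. The number of flags can therefore not be set against 1 in 20.

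Active animal 4 gave 5 of them. In the hypothalamus it had 1281 CPM of ENSOARG00020015174, with 48.0 CPM in the next active ram, and 232 CPM of ENSOARG00020022677, with 8.75 CPM in the next. In the pineal gland it had 476 CPM of ENSOARG00020015585 (next 39.0), 16.3 CPM of ENSOARG00020016511 (next 6.02) and 6.86 CPM of ENSOARG00020015174 (next 2.3).

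Inactive rams gave the other 5. Animal 8 had 2.07 CPM of ENSOARG00020016511 in the pineal gland, with 0.191 CPM in the next inactive ram, and 0.292 CPM of ENSOARG00020015174, from 11 counts, with 0.0273 CPM in the next. Animal 10 had 2.27 CPM of ENSOARG00020015585 in the pineal gland (next 0.824). Animal 12 had 2.49 CPM of ENSOARG00020022677 in the hypothalamus (next 0.887). In the pars tuberalis, animal 9 had 18448 CPM of ENSOARG00020016511, with 8831 CPM in the next inactive ram.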

How the results depend on the processing

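RLE scaling, no low-count filter and a pseudocount of 1 kept the direction and the side of the threshold of each result computed under them (23, 23 and 21). The animal block, as a replicate block, changed no call, with 9 of 9 results on the same side, and gave -3.83 for ENSOARG00020016511 in the pars tuberalis minus hypothalamus state effect. DESeq2 called state in the hypothalamus for ENSOARG00020016511 (log2 difference 4.22), ENSOARG00020015174 (6.19) and ENSOARG00020022677 (5.87), and in the pineal gland for ENSOARG00020015585 (6.95). Its calls were 1 gene in the pars tuberalis, 138 in the hypothalamus and 20 in the pineal tissue, and 11 and 2 for the pars tuberalis against each. By edgeR, the hypothalamus fitted alone gave 0 called genes. The highest-to-lowest ratio of ENSOARG00020016511 was 6.12 on the raw total and 6.26 on the total without the 4 transcripts. The r of ENSOARG00020015174 with ENSOARG00020015585 turned to 0.0727 and 0.0794 on those totals, and that of ENSOARG00020016511 with ENSOARG00020015585 to 0.0066 on the latter. As deviations from state means the hypothalamus and pineal relations fell to 0.65, 0.60 and 0.75 for ENSOARG00020016511, ENSOARG00020015174 and ENSOARG00020015585. For animal 4, a 10-fold limit found 64 hypothalamic and 8 pineal genes, and a 100-fold limit 1 in the pineal gland. At 10-fold other libraries also held members, and the pineal library of animal 10 had 51 such genes. The causes of these changes were not tested.

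Leaving out each animal in turn gave 0 to 54 genes called by edgeR in the hypothalamus (54 without animal 8, 0 without animal 4, 10 or 11) and 0 to 1 in the pars tuberalis (1 without animal 6). State effects ran from -0.0803 to 0.277 for ENSOARG00020015174 and -0.52 to 0.43 for ENSOARG00020015585 in the pars tuberalis, and from 2.57 to 7.07 for ENSOARG00020015174 and 1.86 to 7.02 for ENSOARG00020022677 in the hypothalamus. Differences in the exact tests ran from -0.0339 to 0.343 and -0.34 to 0.33 for the first 2 in the pars tuberalis, 3.01 to 4.80 for ENSOARG00020016511 in the hypothalamus and 2.84 to 5.02 for ENSOARG00020015585 in the pineal gland. Highest-to-lowest ratios ran from 4.04 to 4.96 (ENSOARG00020016511), 2.31 to 3.69 (ENSOARG00020015174), 8.78 to 10.2 (ENSOARG00020015585) and 6.32 to 10.0247 (ENSOARG00020022677). In the pars tuberalis r ran from -0.28 to 0.19 for ENSOARG00020016511 with ENSOARG00020015585, -0.36 to 0.14 for ENSOARG00020015174 with ENSOARG00020015585 and -0.16 to 0.25 for ENSOARG00020015174 with ENSOARG00020022677. Hypothalamus with pineal gland gave 0.69 to 0.81 for ENSOARG00020016511 and 0.37 to 0.80 for ENSOARG00020015174, and pars tuberalis with hypothalamus gave -0.13 to 0.30 for ENSOARG00020015174 and -0.32 to 0.22 for ENSOARG00020022677. Values under about 0.1 CPM rest on a few counts.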
